A study of Mus musculus with 24 samples.

Results

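Serpins of clade B are protease inhibitors that mostly stay inside the cell, and 10 of their genes were followed in mouse airway epithelium under cigarette smoke. The 10 genes, Serpinb1a, Serpinb1b, Serpinb2, Serpinb3a, Serpinb5, Serpinb6b, Serpinb9, Serpinb9b, Serpinb11 and Serpinb12, were taken by symbol from a table of 25239 genes, and each had a row there. The table holds 28 clade B serpins in all. RNA came from tracheal epithelial cells of wild-type FVB/NJ mice, 7 to 8 weeks old, which were expanded, differentiated on inserts with their upper side in air for 10 to 14 days, and then kept for 10 days under humidified air or cigarette smoke. Each smoke exposure burned 2 cigarettes for about 8 minutes. Cells of each sex were kept under each atmosphere, which gives 4 groups of 6 inserts, all of the same strain and age. The series title concerns sex differences in how the epithelium withstands smoke, and the comparisons here are smoke against air within each sex, the difference between those responses, and female against male cells in air. No donors are named in the labels. The inserts of a group may share 1 cell preparation, and the p-values measure only the spread between these inserts. A difference between the sexes also includes any other difference between the preparations.

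A serpin traps its target protease with an exposed loop that the protease cleaves. The protease stays bound to the serpin after the cut and both are inactivated. Clade B members lack a classical secretion signal and are known in epithelia and leukocytes as guards against proteases released within or beside the cell. A few members, maspin (Serpinb5) among them, do not inhibit proteases. In the mouse the genes lie in a pair of clusters that have expanded by duplication.

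Between 16038813 and 24485024 reads fell on genes in the 23 libraries whose whole reads could be recovered from the deposited normalised counts. In a pair of libraries, female air insert 1 and insert 4 of female smoke, levels moved with transcript length (Spearman rho across genes of -0.655 and -0.418 between length and the deviation from the other inserts of the group, against -0.138 to 0.325 in the other 22 libraries). Results that rest on this pair of libraries are given with and without them. Inserts 1 to 3 and inserts 4 to 6 of a group also differed for several members, a split that the labels do not explain. The tissue label fitted the epithelial markers, with the 10 basal cell genes summing to 137584 to 427532 normalised counts in every library. The 20 leukocyte genes summed to 537 to 1814 normalised counts in female air, 1332 to 4063 in female smoke, 110 to 250 in male air and 423 to 834 in male smoke. Of these genes Nkg7, Prf1 and Ncr1 were at 0 in all 24 libraries, the pan-leukocyte gene Ptprc reached at most 8.31 and the macrophage gene Csf1r at most 34. Higher levels were read for Itgam (up to 3662), Cd68 (up to 460) and S100a8 (up to 182). S100a8 rose in female cells (4.70 ± 0.69, limma adjusted p = 4.78e-05) and Itgam in male cells (2.61 ± 0.43, 0.000193). Cd68 rose in both (0.77 ± 0.24, limma adjusted p = 0.0159 in female, and 1.53 ± 0.24, 0.000106 in male). Csf1r fell in female cells (-1.67 ± 0.38, limma adjusted p = 0.00189). The part of these genes in the serpin results was not tested.

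In female cells smoke raised 4 of the 10 serpins and lowered 3. Serpinb2, Serpinb9b, Serpinb3a and Serpinb1a rose, Serpinb12, Serpinb1b and Serpinb11 fell, and Serpinb5, Serpinb6b and Serpinb9 did not pass the test. In male cells Serpinb2 and Serpinb9b rose, Serpinb11 fell and 7 did not pass. The test was limma on log2(normalised count + 1), with 6 inserts per group and a Benjamini-Hochberg adjusted p under 0.05 over the 13549 genes with a mean of at least 10, a filter that all 10 serpins passed. Of all those genes 34.8% were called in female cells (15.5% higher, 19.3% lower) and 22% in male cells (9.76% higher, 12.2% lower). The male count of 3 in 10 is therefore near the background of this fit. All 4 groups shared 1 estimate of the spread. With only the compared groups fitted, 2857 of the 13549 genes were called in female and 6148 in male cells, against 4713 and 2979. The serpins called were then 3 higher and 2 lower in female cells, and still 2 higher and 1 lower in male cells. Counts of calls thus do not rank the sexes by their response to smoke. The median log2 fold change of the 10 was -0.01 in female and 0.08 in male cells, against 0 and -0.01 over all genes tested, since members moved in both directions. The 3 serpins called in both sexes, Serpinb2, Serpinb9b and Serpinb11, moved in the same direction in each. Because the RNA is from whole cultures, fewer cells of a type and less RNA per cell cannot be told apart in any of these values.

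**Figure D1:**
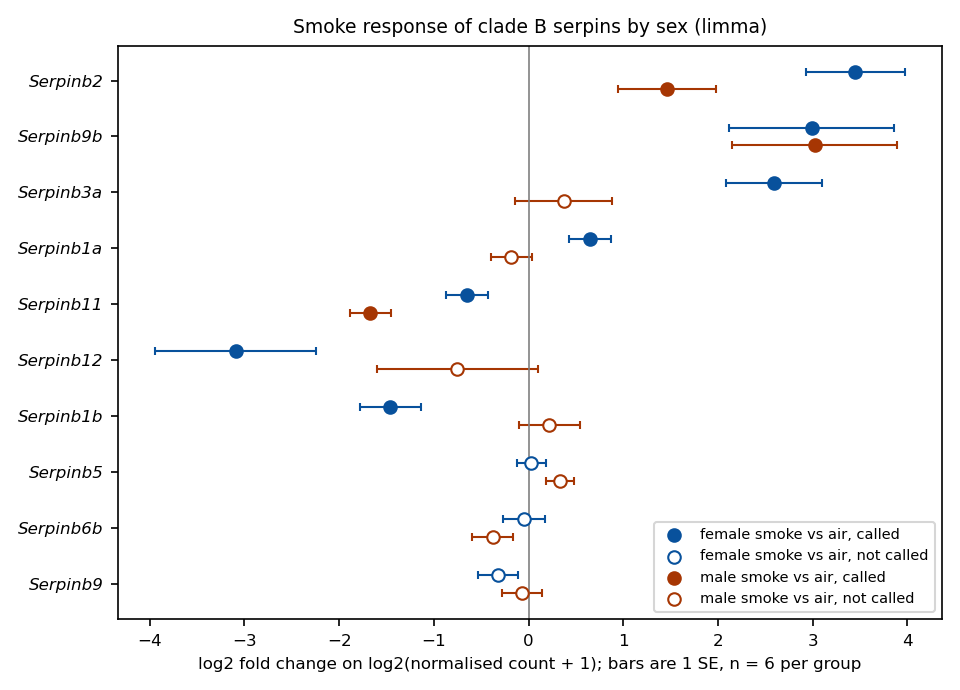
Log2 fold change of smoke against air (x axis, on the log2(normalised count + 1) scale) for the 10 clade B serpins (y axis), female in blue and male in brown; bars are 1 standard error, n = 6 per group, and filled points passed limma at adjusted p under 0.05. Serpinb2 and Serpinb9b lie to the right and Serpinb11 to the left in both sexes, while Serpinb12 and Serpinb1b lie far to the left in female cells and have male bars that cross 0.

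Serpinb2 encodes plasminogen activator inhibitor type 2, which blocks urokinase and tissue plasminogen activator. Its normalised count in female air ran from a lowest of 22.4 through a median of 34.9 to a highest of 97.3, and in female smoke from 149 through 435 to 1012. Every female smoke insert lay above every female air insert, and the log2 fold change was 3.45 ± 0.52 (SE, n = 6 per group, limma adjusted p = 6.09e-05). In male air Serpinb2 ran from 226 through 295 to 858, and in male smoke from 406 through 793 to 3100. The male groups overlapped, with 3 smoke inserts above all air inserts, and the log2 fold change was 1.46 ± 0.52 (limma adjusted p = 0.0468). The male rise was seen in 1 set of inserts. Inserts 1 to 3 stood at 985 to 3100 in smoke against 226 to 267 in air, a 9.32-fold higher mean, whereas inserts 4 to 6 stood at 406 to 601 against 323 to 858, a ratio of 0.86. Fitted on inserts 4 to 6 alone, the male log2 fold change was -0.12 (adjusted p = 0.943), and on inserts 1 to 3 it was 3.05 (0.00225). The male call was also lost without any 1 of male air inserts 1, 2, 3 or 5 or of male smoke inserts 1, 2 or 3, at 1.14 to 1.47 and adjusted p of 0.0684 to 0.138. In female cells both sets of inserts gave a higher mean in smoke, 8.7-fold in inserts 1 to 3 and 14.4-fold in inserts 4 to 6.

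Serpinb9b, a mouse paralogue of the granzyme B inhibitor Serpinb9, was nearly absent from female air, with a lowest of 0, a median of 2 and a highest of 5.56 normalised counts (16 reads in the 6 libraries). In female smoke it ran from 3.19 through 11.9 to 569. Of the 6 female smoke inserts 5 lay above all air inserts, and the top value was that of insert 4, far from the 3.19 to 89 of the others. The log2 fold change was 2.99 ± 0.87 (limma adjusted p = 0.0107), 2.08 without female smoke insert 4 (adjusted p = 0.0228), and 2.02 (0.0284) once female air insert 1 was left out as well. The female call was lost when only the female groups were fitted (adjusted p = 0.062). In male air Serpinb9b ran from 43.5 through 73 to 86.6 and in male smoke from 195 through 458 to 3414. The male groups did not overlap, either over all inserts or within inserts 1 to 3 and inserts 4 to 6, and the log2 fold change was 3.02 ± 0.87 (limma adjusted p = 0.0159). Male smoke insert 1 held the value of 3414 against 195 to 734 in the others, and without it the change was 2.50 (adjusted p = 0.0523). Fitted on inserts 4 to 6 alone it was 1.93 (adjusted p = 0.379).

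Serpinb11, an epithelial serpin whose mouse protein inhibits trypsin-like proteases, moved the other way. It ran from 2774 through 3592 to 3925 in male air and from 592 through 1211 to 1464 in male smoke. Every male smoke insert lay below every male air insert, and the log2 fold change was -1.67 ± 0.22 (limma adjusted p = 1.61e-05), a call kept with each of 12 libraries left out in turn and under the 14 other alternatives run. The mean ratio of smoke to air was 0.287 in inserts 1 to 3 and 0.359 in inserts 4 to 6. Female air ran from 2601 through 4292 to 5249 and female smoke from 1711 through 2403 to 4066. Those groups overlapped, with 4 smoke inserts below all air inserts, and the log2 fold change was -0.65 ± 0.22 (limma adjusted p = 0.024). Within inserts 1 to 3 and within inserts 4 to 6 the female groups did not overlap, at mean ratios of 0.681 and 0.598. The female call was lost when only the female groups were fitted (-0.65, adjusted p = 0.0611), without the pair of length-trend libraries (-0.46, 0.0992), with inserts 1 to 3 alone (-0.60, 0.203), and without female air insert 5 (-0.58, 0.0566), female smoke insert 1 (-0.59, 0.055) or female smoke insert 4 (-0.54, 0.0638).

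The sequences just before the starts of these 3 genes are shown because they alone were called in both sexes. They are the 250 bases before the RefSeq start on GRCm38.p6 (the first of 2 starts for Serpinb2), all on the plus strand. They lie at chr1:107511173-107511422 for Serpinb2, chr13:33027164-33027413 for Serpinb9b and chr1:107362064-107362313 for Serpinb11. Capitals mark every match to one of 7 motifs searched on both strands. AP-1, the site of Fos and Jun factors, was searched as TGANTCA and a TATA box as TATAAA. The motif of C/EBP factors was taken as TTGCNNAA. The core of the antioxidant response element was TGACNNNGC and that of the xenobiotic response element was GCGTG. The interferon-stimulated response element and NF-kappaB were searched in their usual forms.
Serpinb2: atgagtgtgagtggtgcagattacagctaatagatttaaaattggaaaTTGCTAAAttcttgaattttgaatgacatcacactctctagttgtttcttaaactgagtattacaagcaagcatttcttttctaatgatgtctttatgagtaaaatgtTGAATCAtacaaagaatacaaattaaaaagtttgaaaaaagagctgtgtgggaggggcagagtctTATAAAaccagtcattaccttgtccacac
Serpinb9b: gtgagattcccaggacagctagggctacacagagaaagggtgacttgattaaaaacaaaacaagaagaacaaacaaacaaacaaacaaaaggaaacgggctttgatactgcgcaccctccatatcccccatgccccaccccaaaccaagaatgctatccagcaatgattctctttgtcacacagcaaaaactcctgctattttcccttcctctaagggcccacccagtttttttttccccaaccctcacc
Serpinb11: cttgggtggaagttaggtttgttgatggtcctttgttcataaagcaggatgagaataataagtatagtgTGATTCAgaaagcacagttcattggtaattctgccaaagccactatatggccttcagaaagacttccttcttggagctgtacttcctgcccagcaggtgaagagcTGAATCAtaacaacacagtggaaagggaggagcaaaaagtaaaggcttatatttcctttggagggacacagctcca
The Serpinb2 stretch holds a C/EBP match from 202 to 195 bases before the first start, an AP-1 match from 94 to 88 and a TATA box from 29 to 24. Counted from the second Serpinb2 start, the same AP-1 match lies from 181 to 175 and the same TATA box from 116 to 111. Another C/EBP match, not shown, lies from 19 to 12 bases before that start. Serpinb11 holds a pair of AP-1 matches, from 181 to 175 and from 76 to 70 bases before the start, and Serpinb9b holds none of the 7 motifs in this window. Promoters were found for 9 of the 10 serpins, with 2 starts each for Serpinb2 and Serpinb12. A serpin was counted if any of its promoters held a match, whereas the shares given beside are of single promoters. AP-1 occurred in 4 of the 9 (Serpinb2, Serpinb5, Serpinb11 and Serpinb12), against 6.75% of 32817 mouse promoters, and so lay before genes that rose, fell and did not pass. The TATA box occurred in 3 (12.4% of all) and C/EBP in 2 (9.57%). The antioxidant core occurred in 1, Serpinb12, before its second start only (10.2%), and the interferon element in 1, Serpinb9 (2.97%). No match was found for the xenobiotic core (28.1%) or NF-kappaB (3.9%). A match is a run of letters and not a measured site, and the AP-1 and antioxidant motifs share their opening bases.

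The other 4 serpins called in female cells had no call in male cells. Serpinb3a is a mouse counterpart of the squamous cell carcinoma antigens, which inhibit cysteine cathepsins and serine proteases. It ran from 1.09 through 10.6 to 18.2 in female air and from 21.9 through 53.6 to 81.5 in female smoke. The female groups did not overlap, and the log2 fold change was 2.59 ± 0.51 (limma adjusted p = 0.000629). In male cells it ran from 12.4 through 22.6 to 28.5 in air and from 7.39 through 37.7 to 52.6 in smoke, with a log2 fold change of 0.37 ± 0.51 (adjusted p = 0.646, 95% interval -0.62 to 1.37). Male smoke inserts 4 to 6 had a mean 2.15 times that of air and inserts 1 to 3 a mean 0.923 times that of air. Of the 50-base stretches of Serpinb3a transcripts, 15% also occur in other genes, most often the predicted gene Gm8080 and Serpinb3b, so its reads may be split or lost in counting.

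Serpinb1a inhibits the neutrophil proteases elastase, cathepsin G and proteinase 3. Its level in female air ran from 2289 through 2835 to 4569 and in female smoke from 3875 through 4650 to 5416. The rise was small (log2 fold change 0.65 ± 0.22, limma adjusted p = 0.0216), with 4 smoke inserts above all air inserts, and leaving out insert 6 of female air ended the call (0.58, adjusted p = 0.053). In male cells Serpinb1a ran from 692 through 848 to 921 in air and from 310 through 798 to 1061 in smoke (log2 fold change -0.18 ± 0.22, adjusted p = 0.599).

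Serpinb1b, a mouse paralogue of Serpinb1a in the same cluster, fell where Serpinb1a rose. It ran from 163 through 225 to 312 in female air and from 40.8 through 72.1 to 183 in female smoke, with 5 smoke inserts below all air inserts. The log2 fold change was -1.46 ± 0.32 (limma adjusted p = 0.00163). In male cells it ran from 34.9 through 37.4 to 45.1 in air and from 20 through 45.2 to 77.7 in smoke, with a log2 fold change of 0.22 ± 0.32 (adjusted p = 0.68). Inserts 1 to 3 of male smoke all lay above those of male air, at a mean ratio of 1.68, and inserts 4 to 6 gave 0.842. The paralogues share few exact stretches: 3.09% of the 50-base windows of Serpinb1b and 2.81% of those of Serpinb1a also occur in another gene.

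Serpinb12, an inhibitor of trypsin-like proteases, had the deepest female fall of the 10. It ran from 388 through 648 to 1129 in female air and from 1.2 through 105 to 451 in female smoke, where insert 4 was lowest and 5 inserts lay below all air inserts. The log2 fold change was -3.09 ± 0.85 (limma adjusted p = 0.00743), -2.07 without female smoke insert 4 (adjusted p = 0.00744) and -1.91 (0.0122) once female air insert 1 was left out too. In male cells it ran from 134 through 193 to 205 in air and from 13.3 through 139 to 262 in smoke, where insert 1 was lowest, with a log2 fold change of -0.75 ± 0.85 (adjusted p = 0.572, 95% interval -2.42 to 0.92).

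**Figure D2:**
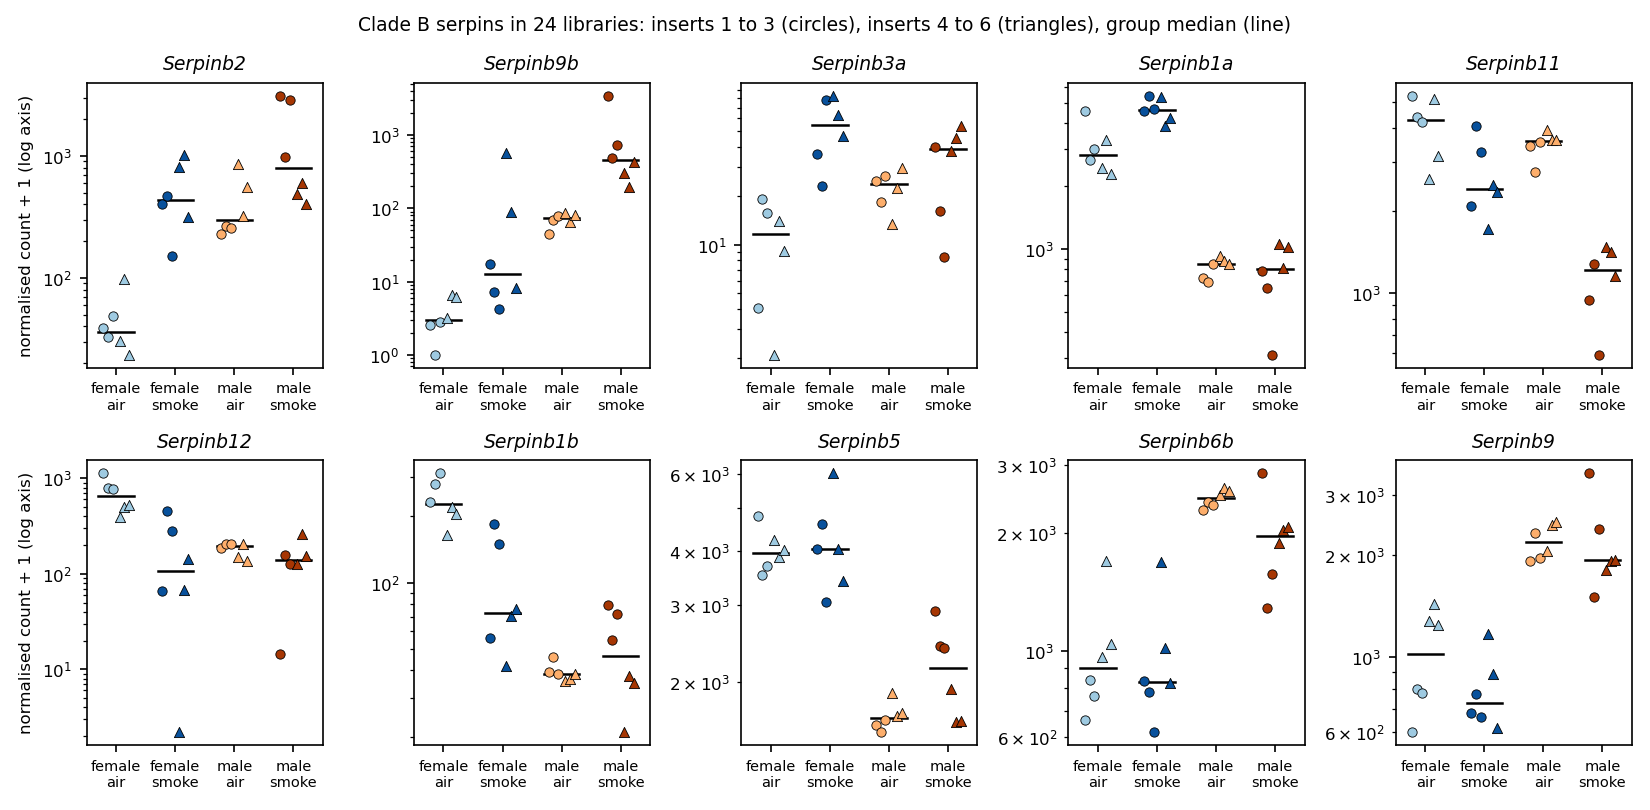
Normalised count plus 1 (y axis, log scale with its own range in each panel) of each clade B serpin in the 24 libraries by group (x axis); circles are inserts 1 to 3, triangles inserts 4 to 6 and lines group medians. Male smoke inserts 1 to 3 lie above inserts 4 to 6 for Serpinb2, and single low inserts stand out for Serpinb12 in both smoke groups.

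The remaining 3 serpins were not called in either sex. Serpinb5, the epithelial protein maspin, ran from 3521 through 3943 to 4805 in female air and from 3050 through 4026 to 6017 in female smoke (log2 fold change 0.03 ± 0.15, limma adjusted p = 0.895, 95% interval -0.26 to 0.32). In male cells it ran from 1534 through 1653 to 1887 in air and from 1622 through 2155 to 2901 in smoke. The male change of 0.33 ± 0.15 (adjusted p = 0.109) passed without the pair of length-trend libraries (adjusted p = 0.0304), in edgeR (0.43, adjusted p = 0.0464) and in DESeq2 (0.43, 0.026), both of which leave out male smoke insert 5. It too came from inserts 1 to 3, whose smoke mean was 1.62 times that of air, against 0.985 in inserts 4 to 6.

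Serpinb9 inhibits granzyme B, the main protease of cytotoxic lymphocytes. It ran from 598 through 1019 to 1431 in female air, from 613 through 728 to 1162 in female smoke, from 1911 through 2178 to 2488 in male air and from 1497 through 1921 to 3477 in male smoke. The groups overlapped in both sexes, and the log2 fold change was -0.32 ± 0.21 in female (limma adjusted p = 0.244) and -0.07 ± 0.21 in male cells (0.855). Without both libraries with a length trend the female change was -0.58 (adjusted p = 0.0177). Serpinb6b, a mouse paralogue of the cathepsin G inhibitor Serpinb6a, had medians of 900 in female air, 832 in female smoke, 2456 in male air and 1964 in male smoke. Its log2 fold change was -0.05 ± 0.22 in female (adjusted p = 0.876) and -0.38 ± 0.22 in male cells (0.227), with 5 male smoke inserts below all male air inserts.

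Counts of members whose smoke and air inserts did not overlap were smaller than the counts of calls. In female cells these were Serpinb2 and Serpinb3a, 2 of 10 against 12.5% of all genes tested (6.73% higher in smoke, 5.75% lower). In male cells they were Serpinb9b, which was higher (11% of all genes), and Serpinb11, which was lower (14.2%), 2 of 10 against 25.2%. Within inserts 1 to 3 and within inserts 4 to 6, each compared on its own, 7 serpins did not overlap in female cells, the same 7 that were called, and 2 in male cells. Over all genes tested this held for 21.3% in female and 33.1% in male cells. Fitted on inserts 1 to 3 alone, 1 serpin, Serpinb2, kept its female call (4.84% of all genes were called). Fitted on inserts 4 to 6 alone the 7 female calls were kept and Serpinb9 was called lower (46.1% of all genes). The mean ratio of smoke to air lay on opposite sides of 1 in these sets of inserts for 7 serpins in male cells and for 1, Serpinb5, in female cells. The share of all genes for which this held was not counted, so the 7 cannot be called particular to the serpins. Some of the male ratios lay near 1, such as 0.985 for Serpinb5 and 1.09 for Serpinb1a in inserts 4 to 6.

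No serpin passed the test of the difference between the sexes in the smoke response (0 of 10, against 1.03% of all genes tested, 0.694% higher and 0.34% lower), although 4 were called in female cells alone. At an unadjusted p under 0.05 limma gave 5, against 13.2% of all genes tested. The largest of these was Serpinb3a, whose female response exceeded the male one by 2.22 ± 0.72 on the log2 scale (limma adjusted p = 0.146). The difference was 1.99 ± 0.74 for Serpinb2 (limma adjusted p = 0.217), -0.10 with inserts 1 to 3 alone (0.95) and 4.08 with inserts 4 to 6 alone (0.0217). For Serpinb1b, which came nearest to the threshold, the difference was -1.68 ± 0.46 (limma adjusted p = 0.0735). For Serpinb11 it was 1.02 ± 0.31 (limma adjusted p = 0.113). Without the pair of length-trend libraries it was 1.21 (limma adjusted p = 0.0197), with 840 of all genes called against 140. For Serpinb1a the difference was 0.83 ± 0.30 (limma adjusted p = 0.213). On the recovered reads of 23 libraries, without male smoke insert 5, edgeR called 0 of the 10. DESeq2 called 2, Serpinb1b (-1.73, adjusted p = 0.016) and Serpinb11 (1.05, adjusted p = 0.0374). Of all genes DESeq2 called 506, against 140 in limma. For Serpinb12 the 95% interval of the difference ran from -4.70 to 0.02, and for Serpinb9b, at -0.03, from -2.45 to 2.39.

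In air 8 of the 10 serpins differed between female and male cells (39% of all genes tested were called, 20% higher and 19% lower in female). These 8 split into 3 that were higher in female cells and 5 that were lower. Female cells had more Serpinb1b (log2 difference 2.57 ± 0.32, limma adjusted p = 1.11e-06), Serpinb1a (1.86 ± 0.22, 3.08e-07) and Serpinb5 (1.26 ± 0.15, 3.37e-07). They had less Serpinb9b (-4.48 ± 0.87, limma adjusted p = 0.000272), Serpinb2 (-3.18 ± 0.52, 3.81e-05), Serpinb3a (-1.39 ± 0.51, 0.0329), Serpinb6b (-1.38 ± 0.22, 2.28e-05) and Serpinb9 (-1.17 ± 0.21, 0.000102). The inserts of the sexes did not overlap for 8 serpins, against 33.2% of all genes tested. These were the called ones other than Serpinb3a, together with Serpinb12, whose difference of 1.85 ± 0.85 missed the threshold (adjusted p = 0.0887). Serpinb3a lost its call without the pair of length-trend libraries (-1.18, adjusted p = 0.0586) and in edgeR (-1.11, adjusted p = 0.0726). It was also lost without any 1 of female air inserts 1 or 4 or male air inserts 1, 3, 5 or 6 (-1.38 to -0.99, adjusted p of 0.0524 to 0.0967), with inserts 1 to 3 alone (-1.10, 0.268) and with inserts 4 to 6 alone (-1.68, 0.0521). Serpinb12 passed without the length-trend libraries (1.69, adjusted p = 0.0148), in edgeR (1.94, adjusted p = 0.0157) and in DESeq2 (1.93, adjusted p = 0.005). It also passed in limma with only the air groups fitted (1.85, adjusted p = 3.88e-05), with quantile scaling (1.84, 0.0316) and with a pseudocount of 5 (1.82, 0.0439). Serpinb11 did not pass in air (0.20 ± 0.22, adjusted p = 0.48, 95% interval -0.23 to 0.63). The female smoke response, the difference between responses and the air comparison share the female air inserts. For Serpinb2 the median of female smoke, 435, was above the 295 of male air, while for Serpinb9b the 11.9 of female smoke remained below the 73 of male air.

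The sizes of the levels differed widely between the serpins when counts were divided by exon length. In female air Serpinb11 had the highest median, 2526 normalised counts per kilobase, followed by Serpinb1a at 1478 and Serpinb5 at 1461. Next in order were Serpinb6b, Serpinb12 and Serpinb9, with medians of 421, 373 and 300. Serpinb1b followed at 131, Serpinb2 at 17.1, Serpinb3a at 6.48 and Serpinb9b at 1.02 per kilobase. The range of each serpin overlapped that of the next, except between Serpinb5 (lowest 1304) and Serpinb6b (highest 792) and between Serpinb1b (lowest 95.1) and Serpinb2 (highest 47.5). In male air Serpinb11 was again highest, at 2114 per kilobase, and Serpinb6b was next at 1149. Serpinb9 and Serpinb5 stood at 641 and 612, then came Serpinb1a at 442, Serpinb2 at 144, Serpinb12 at 111, Serpinb9b at 37.3, Serpinb1b at 21.8 and Serpinb3a at 13.8. Neighbours that overlapped in male air were Serpinb9 with Serpinb5, Serpinb1a with Serpinb2, Serpinb2 with Serpinb12, and Serpinb9b with Serpinb1b. In male smoke the highest median among the 10 was that of Serpinb6b, 919 per kilobase, ahead of Serpinb5 at 798 and Serpinb11 at 713, whose ranges overlapped.

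On mm10 the clade B genes of the table form 1 cluster on chromosome 1 and 1 on chromosome 13, with 5 of the 10 serpins in each. The chromosome 1 cluster has 12 clade B genes between 106861175 and 107608978, a span of 747.8 kb with no other annotated gene. It holds Serpinb5, Serpinb12, Serpinb3a, Serpinb11 and Serpinb2 in this order. The chromosome 13 cluster has 16 between 32842092 and 34002794, with 3 other genes among them, one of which is Nqo2, and holds Serpinb1a, Serpinb6b, Serpinb9, Serpinb9b and Serpinb1b. In female cells Serpinb2 (starting at 107511423) rose while Serpinb11 (starting at 107362314) and Serpinb12 (starting at 106934449) fell, and on chromosome 13 Serpinb9b (33027414 to 33040588) rose beside Serpinb9 (33004541 to 33017955), which did not pass.

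**Figure D3:**
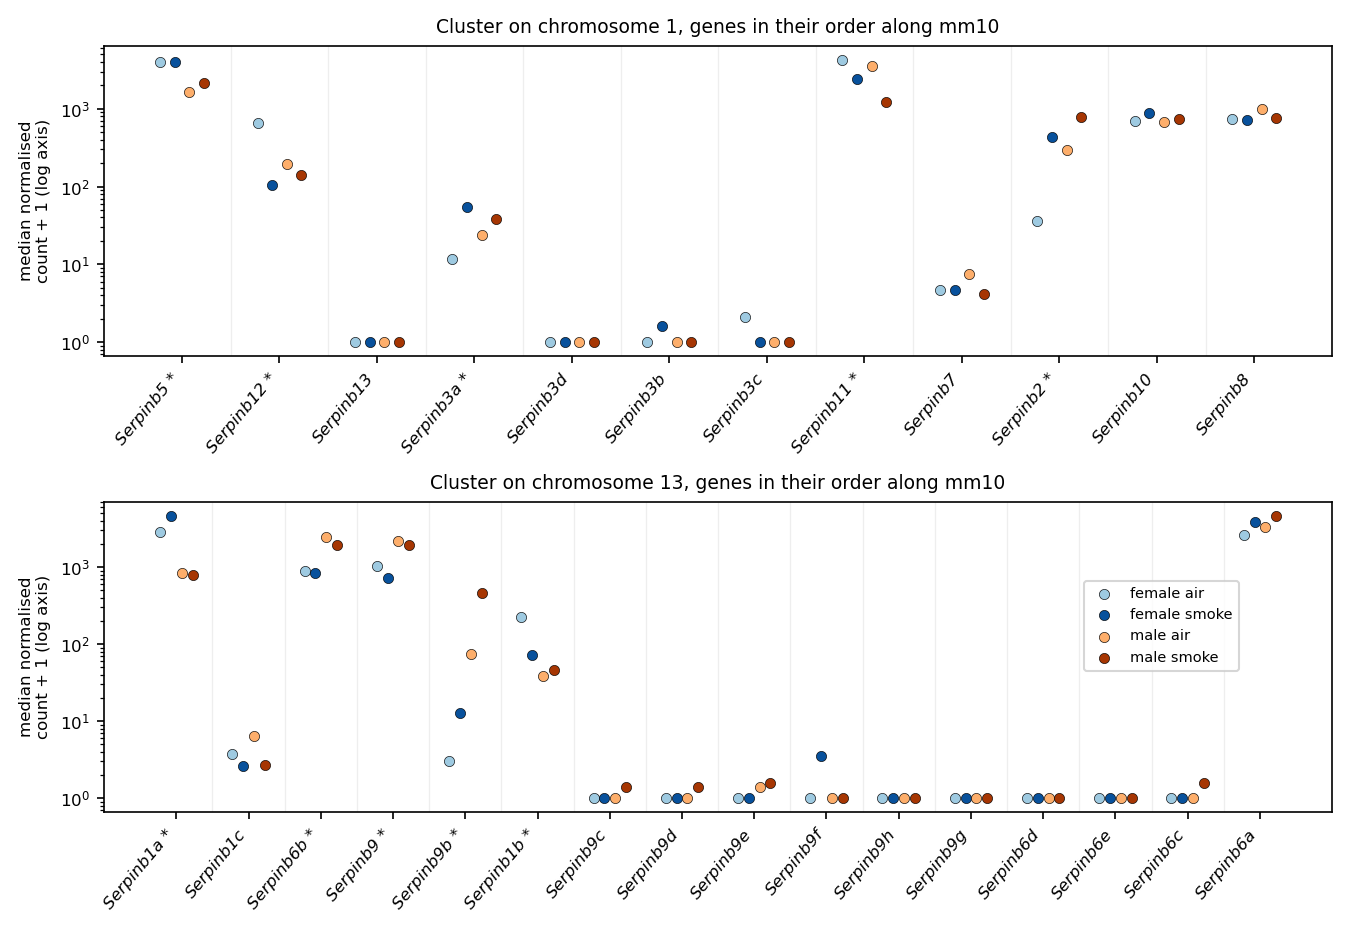
Median normalised count plus 1 (y axis, log scale) in each of the 4 groups for the clade B genes of the table in their order along chromosomes 1 and 13 (x axis); asterisks mark the 10 serpins described. Genes with high medians, such as Serpinb11, stand among genes at or near 0, such as Serpinb3d and Serpinb13.

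Of the 18 other clade B serpins listed, 3 passed the filter and 15 did not. The 15 reached at most 31.5 normalised counts in any library (Serpinb7), and Serpinb3d, Serpinb6d, Serpinb9g and Serpinb9h were at 0 in all 24 libraries. The 3 tested were Serpinb6a, Serpinb8 and Serpinb10, and 0 of them passed in any comparison. Serpinb10, the gene after Serpinb2, came nearest in female cells (log2 fold change 0.60 ± 0.25, limma adjusted p = 0.0594), and 10.4% of the 50-base windows of Serpinb2 transcripts also occur in Serpinb10. Serpinb6a stood highest, with medians of 2581 normalised counts in female air and 3290 in male air, and its log2 fold change was 0.48 ± 0.25 in each sex (adjusted p = 0.136 female, 0.169 male).

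Serpinb12 followed the motile cilia genes across libraries. The 13 motile cilia genes of the list that were in the table summed to 13688 to 27075 normalised counts in female air, 203 to 14387 in female smoke, 4697 to 8620 in male air and 570 to 5676 in male smoke. In female smoke all 13 fell, the axonemal dynein genes Dnah5 (-3.43 ± 1.06, limma adjusted p = 0.0148) and Dnah9 (-3.36 ± 1.09, 0.0195) among them. In male smoke 1 of 13, Mcidas, was called lower. Of all genes tested 19.3% were called lower in female and 12.2% in male cells. The median log2 fold change of the 13 was -2.62 in female and -1.24 in male cells, against 0 and -0.01 over all genes tested. Over the 24 libraries, which share groups and preparations, Pearson's r between Serpinb12 and this sum on the log2 scale was 0.967. It was 0.977 within groups and 0.958 without the pair of length-trend libraries. Per 1000 counts of the cilia genes Serpinb12 had medians of 28.7 in female air, 22.5 in female smoke, 27.2 in male air and 43.2 in male smoke. In female cells the level itself went from a median of 648 to 105. The inserts lowest in Serpinb12, female smoke insert 4 and male smoke insert 1, were also the lowest in the cilia sum. The part of ciliated cells in the fall of Serpinb12 was not tested.

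Serpinb9b ran against the cilia genes, with r of -0.82 over the libraries and -0.881 within groups. It was not alone in this. Serpinb2 stood at -0.767 over the libraries and -0.501 within groups, Serpinb6b at -0.439 and -0.666, and Serpinb9 at -0.365 and -0.554. Serpinb5 stood at 0.025 and -0.705, Serpinb3a at -0.52 and -0.109, and Serpinb1a at 0.188 and -0.076. Over the libraries without the length-trend pair, Serpinb5 stood at 0.315, Serpinb3a at -0.383 and Serpinb1a at 0.453. Female smoke insert 4, at 1.2 for Serpinb12, was highest in Serpinb9b at 569, and male smoke insert 1, at 13.3, was highest at 3414. Serpinb11 and Serpinb1b had weaker relations to the cilia sum than Serpinb12, with r of 0.67 and 0.623 over the libraries and 0.533 and 0.46 within groups. Whether the makeup of single inserts takes part in these values was not tested.

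**Figure D4:**
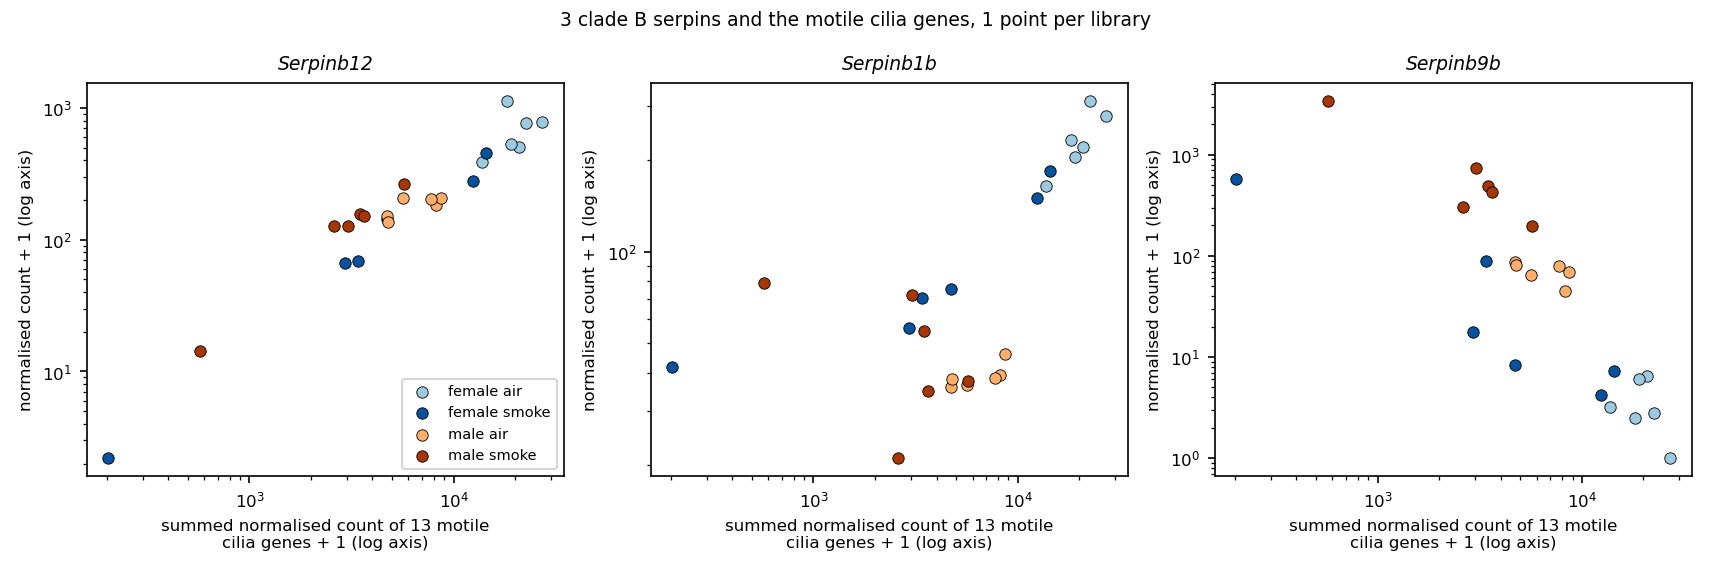
Normalised count plus 1 of Serpinb12, Serpinb1b and Serpinb9b (y axes, log scale) against the summed normalised count plus 1 of 13 motile cilia genes (x axes, log scale), 1 point per library, coloured by group. Over the 24 libraries Serpinb12 is higher where the cilia sum, which runs from 203 to 27075, is higher, although in female air its highest value (1129) lies at a sum of 18277, Serpinb9b is lower where the sum is higher, and Serpinb1b shows a looser relation.

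Squamous genes moved with smoke in both sexes. Of 17 squamous and keratinization genes 13 rose and none fell in each sex, whereas 15.5% of all genes tested rose in female and 9.76% in male cells. The squamous genes summed to 143761 to 296719 in female air, 314407 to 469088 in female smoke, 12544 to 19472 in male air and 33469 to 87053 in male smoke. Within male smoke the sum was higher in inserts 1 to 3, where Serpinb2 was high, at 54926 to 87053, than in inserts 4 to 6, at 33469 to 41123. The cornified envelope genes Sprr2f (7.41 ± 0.45 in female, limma adjusted p = 4.86e-10, and 3.63 ± 0.45 in male, 1.06e-05) and Sprr2h (6.34 ± 0.43, 2.39e-09, and 4.44 ± 0.43, 4.91e-07) were among those that rose. Most of the squamous sum in female cells was 1 gene, Krt13. Its medians were 165212 in female air and 278972 in female smoke, against 193653 and 382558 for the sum. It did not pass there (0.74 ± 0.30, limma adjusted p = 0.0569). In male cells its medians were 4698 in air and 13396 in smoke, against 12945 and 48025. Serpinb5 had the closest relation to this sum, with r of 0.94 over the libraries and 0.787 within groups. For Serpinb2 r was -0.25 over the libraries and 0.688 within groups, with more Serpinb2 and fewer squamous counts in male than in female cells. Of 9 club and secretory genes tested 5 fell in female cells (19.3% of all genes tested) and 3 in male cells (12.2%). Among them were Scgb3a2 in both (-3.19 ± 0.66, limma adjusted p = 0.000963, and -2.49 ± 0.66, 0.00918) and Bpifa1 in female cells (-3.70 ± 0.92, 0.00365). The sum of the 10 in the table was 219083 to 589043 in female air, 76912 to 248832 in female smoke, 497806 to 792913 in male air and 117617 to 352592 in male smoke. Its r was 0.582 over the libraries with both Serpinb11 (0.709 within groups) and Serpinb12 (0.766). Without the pair of length-trend libraries it was 0.552 with Serpinb11 and 0.368 with Serpinb12. Those libraries held the highest sum of female air, 589043 in insert 1, and the lowest of female smoke, 76912 in insert 4. The 8 fibroblast genes summed to 291 to 1509 in female air and 169 to 430 in male air, and to 22.8 to 160 and 29.7 to 97 in smoke. Dcn (-4.52 ± 0.80 in female, limma adjusted p = 0.00029) and Postn (-2.63 ± 0.51, 0.000557) fell in both sexes. The part of these cell types in the changes of the serpins was not tested.

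The genes most like each serpin over the 24 libraries, out of 11484 with a mean of at least 50, are a description with no test. Serpinb12 was closest to Stmnd1 and Nek5, each with Pearson's r of 0.99, and these correlations stayed at 0.993 and 0.992 within groups. Serpinb2 was closest to Myc, a growth regulator (0.947), and Ereg, a ligand of the epidermal growth factor receptor (0.943). Serpinb9b was closest to Ei24 (0.96) and the tight junction gene Cldn6 (0.959), and Serpinb11 to Zfp467 (0.939) and Slc46a3 (0.933). Serpinb1a was closest to the keratin gene Krt4 (0.97) and Pdzk1ip1 (0.967), and Serpinb5 to Chmp3 (0.966) and the lamin gene Lmna (0.964). Serpinb6b and Serpinb9 had the same nearest gene, Garnl3 (0.953 and 0.944), and were close to each other (0.938, and 0.823 within groups). Their second genes were Spg20 (0.934) and Selenon (0.944). Serpinb1b was closest to Cep41 (0.921) and Pcnx4 (0.915). Serpinb3a had the loosest matches, Aldh18a1 (0.825) and Aldh1l2 (0.787). The libraries share group differences and depth, and much of a correlation such as that of Serpinb1a with Krt4 lay between groups, since it was 0.66 within them. Among the serpins Serpinb2 and Serpinb9b also ran together (0.865, and 0.65 within groups).

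Proteases of the kinds that these serpins inhibit changed as well. Of 20 such genes tested 9 rose and 1 fell in female cells, and 10 rose and 1 fell in male cells. Of all genes tested 15.5% rose and 19.3% fell in female cells, and 9.76% rose and 12.2% fell in male cells. The median log2 fold change of the 20 was 0.55 in female and 0.52 in male cells, against 0 and -0.01 over all genes tested. Plat, the tissue plasminogen activator that the product of Serpinb2 inhibits, rose in both sexes (3.46 ± 0.35 in female, limma adjusted p = 7.54e-07, and 2.50 ± 0.35 in male, 3.22e-05). Klk13, a trypsin-like kallikrein, rose by 3.54 ± 0.41 in female (limma adjusted p = 4.85e-06) and 1.28 ± 0.41 in male cells (0.0288). Urokinase, Plau, changed by -0.18 ± 0.32 in female (limma adjusted p = 0.713) and 1.68 ± 0.32 in male cells (0.000734). The leukocyte proteases known as targets of Serpinb1a and Serpinb9 were nearly unread here. Gzmb was at 0 in all 24 libraries, and Elane and Ctsg reached at most 1.14 and 0.799 normalised counts.

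Of 12 serpins of other clades tested, 1 rose and 2 fell in each sex, beside the 34.8% of all genes called in female and 22% in male cells. Serping1, the complement C1 inhibitor, fell in both sexes (-1.75 ± 0.40, limma adjusted p = 0.00218 in female, and -1.52 ± 0.40, 0.00923 in male).

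The authors' deposited table for female cells called the same 7 serpins, 4 higher and 3 lower. Serpinb2 was at 3.15 ± 0.41 (log2, adjusted p = 3.19e-12) in the authors' deposited table, and Serpinb12 at -1.53 ± 0.54 (0.023). For male cells the authors' deposited table called 3 higher, Serpinb2, Serpinb5 and Serpinb9b, and 1 lower, Serpinb11. For air the authors' deposited table called 9, the 8 named above and Serpinb12. These calls come from the same series and are no independent check. The share of all genes that the authors' deposited tables call was not counted.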

How the data were processed

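The values started from are normalised counts that the authors deposited, in 1 table with 1 column per library. They are a signal, counts divided by a size factor per library, per the submitters' processing notes, where DESeq2, HTSeq, Trimmomatic 0.38.0 and FastQC 0.11.9 are listed, beside the builds mm10 and GRCm38. In all 24 libraries 100.0% of values were whole multiples of 1 step (tolerance 0.001 reads). Whole reads of 23 were used for edgeR 4.0.16 and DESeq2 1.42.0. Insert 5 of male smoke, whose step of 0.989 is too near 1 to tell reads from normalised values, was left out of both. Not given in the sources used here are the aligner and the strandedness. NEBNext Ultra II libraries were read on a NovaSeq, per the labels' protocols and the series design.

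Genes with a mean of at least 10 over the 24 libraries (13549 of 25239) entered 1 limma 3.58.1 fit (eBayes with trend, 1 term per group, R 4.3.3) on log2(value + 1), tested two-sided. A fold change on this scale understates the change of low genes, Serpinb9b and Serpinb3a among them. The script was tested on simulated data. The authors' deposited tables hold log2 fold changes, scores and p-values, per the file headers. Their sign was turned to give smoke against air and female against male. Positions in the deposited annotation are on mm10, and promoters are RefSeq's on GRCm38.p6. Shared 50-base windows came from GENCODE transcripts.

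The 10 serpins and all gene lists were chosen with earlier results of these data known. Named genes are the 10, the other tested clade B serpins, the 2 genes most correlated with each of the 10, and of each list the 2 members with the largest change among those called. List members whose level bears on a serpin (such as Plau, Elane, Ctsg, Gzmb) could be given too. The lists cover other serpins, target proteases, squamous, basal, ciliated, secretory, leukocyte, fibroblast and endothelial genes. Of these, 1 basal gene, Krt5, rose (1.06 ± 0.19) and 1 fell in female cells (3, and 2 with Ngfr at -1.04 ± 0.37, in male), and 2 of 2 fibroblast genes tested fell in each sex. Of 4 leukocyte genes tested 2 rose and 1 fell in female cells (2 and 0 in male), and 1 endothelial gene of 1, Vwf, fell in female cells (-2.32 ± 0.49). These counts stand beside the 34.8% of all genes called in female and 22% in male cells. Alternatives were other scalings, pseudocounts, filters, insert sets, left-out libraries, an insert block and both count tests. Of the list of other serpins, 1 result is not reported here.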

Additional observations from a re-analysis of the deposited data

Results flagged for a closer look

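In 6 of the 40 sets of 6 inserts examined (10 serpins in 4 groups) the highest insert lay beyond Dixon's 95% limit. The measure was its distance from the other inserts as a share of the set's range. Chance alone passes this limit in about 1 set of 20 only where values are normally distributed. The distances were taken on normalised counts, not on the log2 scale, and the 40 sets come from the same 24 libraries. That rate is therefore no baseline for the 6. Serpinb9b stood at 569 in female smoke insert 4, against 3.19 to 89 in the other 5, and at 3414 in male smoke insert 1, against 195 to 734. These inserts also had the lowest Serpinb12 of their groups. Serpinb6b stood at 1684 in female smoke insert 4 (the others at 617 to 1017) and at 1693 in female air insert 5 (662 to 1040). Female air insert 5 also had the highest Serpinb2 of its group, 97.3 against 22.4 to 47.3. Serpinb1b stood at 45.1 in male air insert 2, against 34.9 to 38.3.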

How the results depend on the processing

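Of 1146 fold changes of the 10 serpins under the alternatives, 1053 kept direction and side of the threshold, 35 lost a call, 21 gained one and 37 turned. Calls in female cells were 1 higher and 0 lower with inserts 1 to 3 alone, against 4 and 3, while inserts 4 to 6 alone gave 4 and 4, and leaving out 1 library gave 3 to 4 and 2 to 3. Male calls higher were 2, and 1 with library totals, without a filter or with the insert number as a replicate block, 0 with inserts 4 to 6 alone and 0 to 2 leaving out 1 library. They were 3, with Serpinb5, in edgeR, in DESeq2, with inserts 1 to 3 alone and without both length-trend libraries. The difference between the sexes gave 1 higher without both libraries with a length trend (Serpinb11), with inserts 4 to 6 alone (Serpinb2) and in DESeq2 (Serpinb11), and 1 lower with quantile scaling, the block and DESeq2 (Serpinb1b), 0 to 1 leaving out 1 library. The causes of these shifts were not tested. All-gene counts moved most for the female response with inserts 1 to 3 alone (656 against 4713) and with only the groups compared (2857). They moved for the male response with only the groups compared (6148 against 2979), without both length-trend libraries (6398) and with inserts 4 to 6 alone (931). For the difference between the sexes they moved from 140 to 840 without those libraries, 637 with inserts 4 to 6 alone, 40 with inserts 1 to 3 alone, 506 in DESeq2 and 212 with quantile scaling, and for air from 5282 to 2859 with inserts 1 to 3 alone.

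Of the changes that turned, female Serpinb5 was at 0 with library totals, -0.04 with quantile scaling, -0.03 without both length-trend libraries, -0.05 with inserts 1 to 3 alone and -0.08 to 0.12 leaving out 1 library, and female Serpinb6b at -0.23 to 0.11. With inserts 4 to 6 alone male Serpinb1a was at 0.12, Serpinb1b at -0.29, Serpinb2 at -0.12 (against a called 1.46), Serpinb5 at -0.02 and Serpinb12 at 0.09. With inserts 1 to 3 alone male Serpinb3a was at -0.38 and Serpinb9 at 0.17, and male Serpinb9 was at 0.02 in edgeR and 0.01 in DESeq2. Leaving out 1 library, male Serpinb1a ran from -0.29 to 0.06 and Serpinb9 from -0.21 to 0.03. For the difference between the sexes Serpinb2 was at -0.10 with inserts 1 to 3 alone (against 1.99) and Serpinb5 at 0.14 with inserts 4 to 6 alone. Serpinb9b was at 0.16 with quantile scaling, 0.24 with a pseudocount of 0.5, 1.97 with inserts 4 to 6 alone, 1.32 in edgeR, 1.44 in DESeq2 and -0.94 to 0.49 leaving out 1 library. In air Serpinb11 was at -0.10 with inserts 4 to 6 alone.

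Insert numbers were not taken as pairs, because same-numbered air and smoke inserts did not all correlate over 0.1. In female cells 5 of 6 did, at 0.115 to 0.367, and insert 1, with a length-trend library, was at -0.206. In male cells 1 of 6 did, over a range of -0.242 to 0.124, and 2 female and 0 male inserts correlated best with their own number. With the replicate block male Serpinb2 stood at 1.46 (adjusted p = 0.0701) and the Serpinb1b difference at -1.68 (0.0284), and no other call among the 10 serpins changed. Depth limits female air most for Serpinb9b (16 reads over 6 libraries) and Serpinb3a (57 reads).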
